A study of Mus musculus with 2 samples.

Results

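The genes described here build ribosomes: 43 mouse genes for RNA polymerase I and its factors, the small nucleolar ribonucleoproteins (snoRNPs), the nucleolar scaffold and the assembly factors of the small and large ribosomal subunits. They were chosen by gene symbol, and all 43 were found among the 43346 gene rows of the deposited tables, of which 21474 were protein-coding genes. By role they fell into 7 RNA polymerase I genes, 3 box C/D snoRNP genes, 4 box H/ACA snoRNP genes, 4 nucleolar scaffold genes, 13 small subunit genes and 12 large subunit genes. Another 108 genes of the same pathway were read beside them.

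The RNA came from G1E-ER4, a mouse erythroid cell line that lacks a functional Gata1 gene of its own and carries a fusion of the erythroid transcription factor GATA1 with the ligand-binding domain of the estrogen receptor. Estradiol switches the fusion protein on, and the cells then start to mature along the red cell path. The cells had been kept in 10 nM 17beta-estradiol for 7 hours, and polyA RNA was profiled by paired-end sequencing in 2 libraries of this 1 group. The line is a single immortalized model, no untreated sample was analysed here, and the labels tie both libraries to a single biosample, so the difference between replicates 1 and 2 may be technical.

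Ribosome production starts in the nucleolus, where RNA polymerase I transcribes one long precursor that holds the small subunit rRNA and most of the large subunit rRNA. Box C/D snoRNPs guide methylation of the precursor, box H/ACA snoRNPs guide its pseudouridylation, and many assembly factors fold, cut and export the particles. Early erythroid precursors are known for high ribosome output, which the cells turn down as they mature, and inherited defects of ribosome production often show first as anaemia.

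Depth was 59610967 expected counts in replicate 1 and 44689405 in replicate 2. The erythroid markers were high in both libraries, with Klf1 at 984 and 1394 TPM, a level that takes account of transcript length, and the beta-globin gene Hbb-bs at 11770 and 6656. Gata1 stood at 1251 and 872 TPM, but the introduced fusion gene can contribute to that level, so it is no independent marker here. Markers of other cell types were at or near 0: Pou5f1 at 0 in both libraries, Cd3g at 0 and 0.40 TPM, Cd79a at 0.30 and 0.19, and Col1a2 at 0.07 and 0.17. Of the protein-coding genes, 38.3% were detected, meaning that each library gave 1 TPM or more.

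The ribosome genes were nearly all expressed, with mean levels from 0.99 to 1402 TPM. Of the 43 genes, 42 were detected, and the exception was Nip7, a large subunit factor, at 1.12 TPM in replicate 1 and 0.86 in replicate 2. The authors' deposited intervals for Nip7 ran from 0.95 to 1.29 TPM and from 0.69 to 1.05 TPM, so both spanned the limit of 1. The median level of the 43 genes was 33.4 TPM, against 20.8 TPM over the 8219 detected protein-coding genes, and 28 of the 43 lay above that value. There were 9 genes above 100 TPM in both libraries and 7 below 10 TPM in both. Together the 43 genes took 5922 TPM in replicate 1 and 4635 TPM in replicate 2, and Ncl and Fbl alone made up 46.3% and 35.9% of those sums.

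In order of mean level the leading genes were Ncl, Fbl, Rrp9, Nop53, Rrp1, Nhp2, Gar1, Polr1d, Bop1 and Ubtf, and the last were Wdr12, Polr1e and Nip7. Ordered this way, 33 of the 42 neighbouring genes had overlapping ranges over the libraries, so most adjacent places were not separated. The ranges of Ncl and Fbl did not overlap, and neither did those of Rrp1 and Nhp2 or of Nhp2 and Gar1. Across the 43 genes, log2(TPM + 1) in the libraries correlated with Pearson's r of 0.97 (n = 43 genes, which share both libraries), as it did over the 8219 detected genes.

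**Figure D1:**
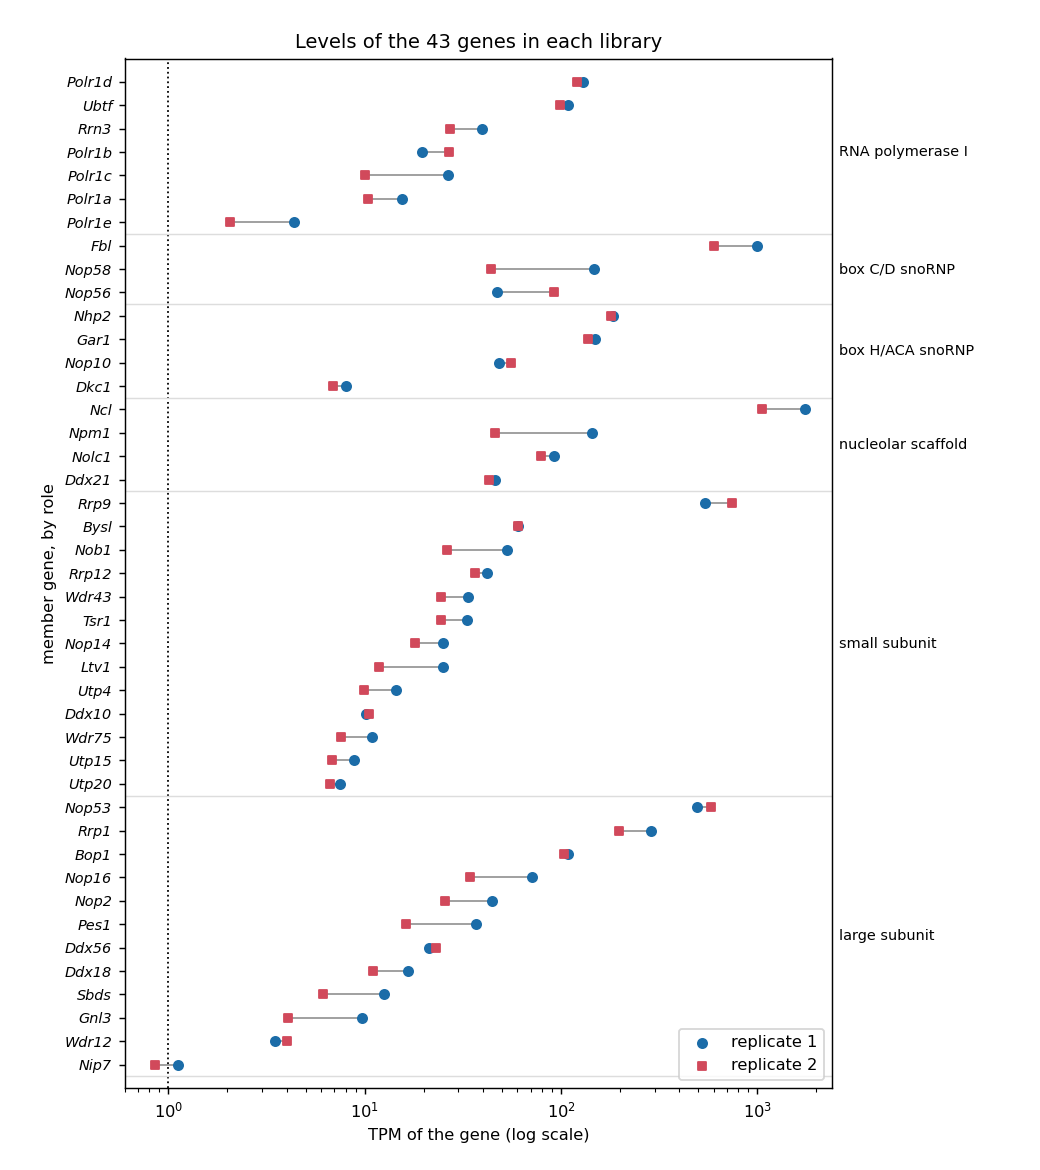
TPM of each of the 43 genes (log scale) in replicate 1 (circles) and replicate 2 (squares), grouped by role, with a grey line joining the libraries and a dotted line at 1 TPM. Ncl is highest in both libraries, at 1743 and 1061 TPM, and Nip7 is the lowest and the only gene that reaches below the dotted line.

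The RNA polymerase I genes ran from 125 TPM down to 3.21 TPM in the mean. Polr1d, a small subunit shared with RNA polymerase III, stood at 129 and 121 TPM, and its usual assembly partner Polr1c, also shared with polymerase III, at 26.5 and 10.1 TPM. Polr1d thus repeated closely while Polr1c was higher in replicate 1. The catalytic subunit Polr1a stood at 15.4 and 10.4 TPM. Polr1b, the second-largest subunit, which forms the active centre with Polr1a, stood at 19.6 and 26.8 TPM and was one of the few genes here that was higher in replicate 2. Polr1e, a subunit that acts in initiation and elongation, was the lowest of the group at 4.36 and 2.05 TPM.

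Among the factors that bring the polymerase to the rRNA genes, Ubtf and Rrn3 stood above its catalytic subunits, though Rrn3 hardly above Polr1b in replicate 2. Ubtf, the HMG-box protein that keeps rRNA gene chromatin open, was at 109 and 98.7 TPM. Rrn3, the initiation factor that links the polymerase to the promoter, was at 39.5 and 27.2 TPM, higher in replicate 1. In both libraries the level of Ubtf lay above that of Rrn3, and Rrn3 above Polr1a. Rrn3 lay above Polr1b in replicate 1. In replicate 2 they were not separated, at 27.2 and 26.8 TPM with deposited intervals of 25.8 to 27.6 and 25.4 to 27.6.

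The box C/D snoRNP genes were led by Fbl (chr7:28169710-28179269, GRCm38), which encodes fibrillarin, the methyltransferase of the particle. Fbl stood at 1001 TPM in replicate 1 and 601 TPM in replicate 2. The scaffold proteins of the same particle, Nop58 (chr1:59684971-59719044) and Nop56 (chr2:130274430-130279313), stood at 147 and 44.0 TPM and at 47.2 and 91.8 TPM. The order of Nop58 and Nop56 was therefore reversed between the libraries, and the ratio of Nop56 to Nop58 was 0.32 in replicate 1 and 2.09 in replicate 2.

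As the fragments were assigned, that reversal lay mainly in transcripts that the annotation gives a type other than protein-coding. These types (retained intron, processed transcript or nonsense-mediated decay) are called noncoding here. The level of the coding transcripts of Nop56 was 34.1 and 24.4 TPM, and that of Nop58 was 37.6 and 22.2 TPM. With the TPM of coding transcripts alone the ratio was 0.91 and 1.10, nearer to equality but still on opposite sides of it. That ratio rests in part on short coding transcripts. Nop58-206, of 638 bases, stood at 21.25 and 8.43 TPM, and Nop58-201, of 1713 bases, at 6.47 and 3.39. Nop56-202, of 1877 bases, stood at 20.7 and 10.5 TPM. By expected counts of the whole genes the ratio of Nop56 to Nop58 was 0.63 and 2.26. The rest of Nop58 was led by Nop58-214, a processed transcript at 60.8 and 5.24 TPM in replicates 1 and 2, and by Nop58-208, a retained-intron transcript at 43.9 and 12.2 TPM. For Nop56 the difference was assigned mainly to Nop56-217, a retained-intron transcript of 445 bases. Its share of Nop56 TPM was 16.4% in replicate 1 and 58.9% in replicate 2. Inside exons of coding transcripts lie 379 of the 445 bases of Nop56-217 and 431 of the 653 of Nop58-208. Most of their sequence thus does not tell them from coding transcripts.

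Some of these transcripts hold a snoRNA gene in an exon. In the GENCODE M21 annotation, the snoRNA gene Gm23187 (chr2:130277195-130277280, plus strand) lies inside an exon of Nop56-217 and of 5 other Nop56 transcripts, and these 6 transcripts held 35.1% and 68.3% of Nop56 TPM. One of the 6 is protein-coding, Nop56-201, with 11.6% and 5.09%, so Gm23187 does not tell the noncoding transcripts from the coding ones. Likewise Gm26293 (chr1:59692509-59692592, plus strand) lies inside exons of Nop58-202, Nop58-208 and Nop58-214, which are noncoding and held 71.3% and 40.1% of Nop58 TPM. Both sequences, from the GENCODE M21 transcripts, are shown because they lie in exons of the transcripts that differed between the libraries, with letters of the box C and box D motifs (TGATG near the start and CTGA near the end) in capitals.
Gm23187: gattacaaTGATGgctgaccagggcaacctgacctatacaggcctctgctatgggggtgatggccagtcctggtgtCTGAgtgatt
Gm26293: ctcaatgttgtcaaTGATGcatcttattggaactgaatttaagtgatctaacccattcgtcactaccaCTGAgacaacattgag

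The box H/ACA snoRNP genes were unequal, and the enzyme was the lowest. Nhp2 and Gar1, small core proteins of the particle, stood at 184 and 180 TPM and at 149 and 138 TPM. Nop10, the smallest core protein, was at 48.3 and 55.8 TPM. Dkc1 (chrX:75095854-75109777), which encodes the pseudouridine synthase dyskerin, was at 8.03 and 6.88 TPM. The median SD of their TPM was 7.77% of the mean, against 22.1% over the 43 genes. Dkc1 repeated on the TPM scale only: it had 557 and 206 counts, and its log2 ratio of scaled counts was -0.81, lower in replicate 2 (binomial test, Benjamini-Hochberg adjusted p = 3.4e-12). The ratio to Dkc1 was 22.9 and 26.1 for Nhp2, 18.5 and 20.02 for Gar1, and 6.01 and 8.11 for Nop10. With coding transcripts alone Dkc1 was at 3.36 and 1.11 TPM, and the ratio of Nhp2 to Dkc1 became 41.0 and 116. The leading Dkc1 transcript by TPM was Dkc1-210, annotated as a target of nonsense-mediated decay, at 44.2% and 40.7%.

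Among the nucleolar scaffold genes, Ncl (chr1:86344719-86359400), which encodes nucleolin, was the highest of the 43 genes, at 1743 and 1061 TPM. Nolc1, a chaperone of snoRNPs, stood at 91.6 and 79.5 TPM, and the RNA helicase gene Ddx21 at 46.2 and 42.9 TPM. Npm1, which encodes the histone and ribosome chaperone nucleophosmin, stood at 145 TPM in replicate 1 and 46.4 in replicate 2. Ddx21 and Nolc1 repeated closely, while Npm1 and Ncl were higher in replicate 1.

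The level of Ncl rested on 1 short noncoding transcript. Ncl-205 (chr1:86350496-86351211, minus strand), a retained-intron transcript of 601 bases in 2 exons, stood at 1607 TPM in replicate 1 and 969 in replicate 2. Its share of Ncl was 92.2% and 91.3% by TPM, and 70.3% and 74.8% by expected counts. The coding transcripts of Ncl stood at 83.9 and 77.7 TPM, close to each other on the TPM scale. Most of that level was assigned to Ncl-203, of 661 bases, at 69.2 and 68.8 TPM. The longer Ncl-201 stood at 14.7 and 8.88 TPM, with 5991 and 2530 counts, and was higher in replicate 1. By coding transcripts Ncl was 10th among the 43 genes instead of first, and Fbl was first. The deposited model of the coding transcript Ncl-201 is 8202 bases long, of which 5978 lie in its last exon (chr1:86344719-86350696). Of the 601 bases of Ncl-205, 425 lie inside exons of coding transcripts and the other 176 do not, so most of its sequence does not tell it from a coding transcript.

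Of those 176 bases, which extend an exon into the intron before it, 43 overlap the snoRNA gene Snora75 (chr1:86351169-86351301, minus strand). Snora75 is shown for its place at the edge of the retained stretch, with the ACA box in capitals, and Snord82 (chr1:86356261-86356330, minus strand), in another intron of Ncl, is shown beside it as a box C/D snoRNA with its TGATG and CTGA letters in capitals.
Snora75: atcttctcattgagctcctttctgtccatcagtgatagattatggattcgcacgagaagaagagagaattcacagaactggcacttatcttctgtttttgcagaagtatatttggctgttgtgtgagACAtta
Snord82: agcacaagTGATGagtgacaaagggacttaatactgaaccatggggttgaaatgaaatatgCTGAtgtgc

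More of the ribosome genes than of other genes held snoRNA genes, a count given here without a test. The annotation placed 22 snoRNA genes inside 8 of the 43 genes, or 18.6%, against 2.23% of the detected protein-coding genes and 1 of the other 108 genes of the pathway. The hosts were Ncl, Nop56, Nop58, Nop53, Tsr1, Gnl3, Wdr43 and Dkc1. Of the 22 sequences, 15 held both TGATG in the first 20 bases and CTGA in the last 20, and 2 ended in ACA followed by 3 bases. All 22 were listed at 0 counts in both libraries. They are 68 to 133 bases long, and the largest effective length given to any of them was 6.47 bases, so a count of 0 in these libraries says nothing of their level.

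The small subunit genes were led by Rrp9 (chr9:106475963-106485424), a protein of the U3 snoRNP, at 542 and 742 TPM, higher in replicate 2. Its coding transcript Rrp9-201 stood at 238 and 235 TPM, so the libraries agreed for it. The difference lay in Rrp9-207, a nonsense-mediated decay transcript of 482 bases, at 295 and 494 TPM. All 482 bases lie inside exons of the coding transcript.

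The early small subunit factors stood far below Rrp9. The subunits of the complex that joins the precursor during transcription were Wdr43 at 33.5 and 24.5 TPM, Utp4 at 14.5 and 9.89, Wdr75 at 10.9 and 7.61, and Utp15 at 8.78 and 6.78. Each of these was higher in replicate 1, Wdr75 on the TPM scale only. Its log2 ratio of scaled counts was -0.04 (binomial test, Benjamini-Hochberg adjusted p = 0.74). Utp20, a large scaffold protein, stood at 7.49 and 6.66 TPM, the RNA helicase gene Ddx10 at 10.1 and 10.6, and Nop14, a core processing factor, at 25.0 and 17.99. Ddx10 and Utp20 differed little, and Nop14 was higher in replicate 1.

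The late small subunit factors repeated unevenly, with an SD of TPM from 0.21% of the mean in Bysl to 50.6% in Ltv1. Bysl, an assembly factor of the pre-small-subunit particle, stood at 60.2 and 60.1 TPM, the closest repeat of the 43 genes on the TPM scale, though not on scaled counts, where its log2 ratio was 0.11. Ddx21, at 0.00, and Polr1d, at 0.03, were closer there. Rrp12, which acts in export, stood at 42.0 and 36.4 TPM. Bysl shares 361 exonic bases, 9.37% of its exons, with Ccnd3 on the opposite strand, which stood at 690 and 622 TPM, and whether the counting used strand is not given in the sources used here. Ltv1, an export factor, stood at 25.1 and 11.9 TPM. Nob1, the endonuclease that makes the final cut of the small subunit rRNA, stood at 52.9 and 26.3 TPM, and Tsr1, a late assembly factor, at 33.2 and 24.5.

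Nob1 had a different leading transcript in each library. Nob1-201, the coding transcript, made up 67.2% of Nob1 TPM in replicate 1 and 15.1% in replicate 2, at 35.6 and 3.97 TPM. Nob1-207, a nonsense-mediated decay transcript, held 15.5% and 62.3%. Tsr1 was given in both libraries mainly as the retained-intron transcript Tsr1-207, with 89.3% and 93.7% of TPM and 75.8% and 85.5% of counts. The exons of Tsr1 also share 1240 bases with Srr on the opposite strand, which stood at 2.22 and 0.94 TPM.

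Among the large subunit genes, Nop53 (chr7:15936183-15946074), which recruits the exosome to the pre-large-subunit particle, was the highest, at 491 and 581 TPM. Rrp1, an early factor, stood at 288 and 197 TPM. Nop53 was higher in replicate 2 and Rrp1 in replicate 1. The 3 genes of the PeBoW complex, which acts in precursor processing, stood apart: Bop1 at 109 and 104 TPM, Pes1 at 36.8 and 16.3, and Wdr12 at 3.48 and 4.02. The ratio of Bop1 to Pes1 was 2.95 in replicate 1 and 6.38 in replicate 2, and that of Wdr12 to Pes1 was 0.095 and 0.25. The order Bop1, Pes1, Wdr12 was the same in both libraries, and the ratios were not, since Pes1 was higher in replicate 1.

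The other large subunit factors were mostly below 60 TPM. Nop16, an assembly factor, stood at 70.9 and 34.5 TPM, and the rRNA methyltransferase gene Nop2 at 44.3 and 25.6. The RNA helicase genes Ddx56 and Ddx18 stood at 21.1 and 23.0 TPM and at 16.6 and 11.0 TPM. Sbds, which helps release the anti-association factor eIF6 from the late particle, stood at 12.6 and 6.13 TPM, and Gnl3, which encodes the GTPase nucleostemin, at 9.69 and 4.08. Of these genes Ddx56 alone was higher in replicate 2. In the pathway list Eif6 itself stood at 305 and 562 TPM, far above Sbds in both libraries.

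Noncoding transcripts took a large share of some of the genes but not of most. The table of transcripts gave 19 of the 43 genes a single transcript, and 20 had more than 1 transcript above 5% of TPM. The median share of coding transcripts was 99.9%, against 99.4% over the detected protein-coding genes. There were 7 genes below 50% (16.3%, against 20.5% of detected genes) and 16 below 90% (37.2%, against 36.3%), so these shares were near those of other genes. By TPM the leading transcript was noncoding in 6 genes, Ncl, Nop56, Nop58, Dkc1, Rrp9 and Tsr1. By expected counts it was a coding transcript in 3 of these, Nop56 (Nop56-202, 60.7% and 29.9%), Dkc1 (Dkc1-201, 78.1% and 50.8%) and Rrp9 (Rrp9-201, 75.7% and 64.8%). Wdr75 went the other way. Its leading transcript by TPM was coding, at 55.9% and 47.0% in replicates 1 and 2. By expected counts a retained-intron transcript of Wdr75 led, at 53.8% and 63.6%, and its coding transcripts held 39.1% and 35.0%. The leading transcript by TPM differed between the libraries in 4, Nop56, Nop58, Nob1 and Polr1c. In Polr1c the nonsense-mediated decay transcript Polr1c-206 held 61.4% of TPM in replicate 1 and was listed at 0 in replicate 2, while the coding transcripts stood at 6.96 and 8.39 TPM. In Ubtf the leading transcript was coding, Ubtf-213 at 35.1% and 45.5%. The noncoding Ubtf-212 of 480 bases held 27.7% and 22.6% of TPM but 3.35% and 2.53% of counts.

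**Figure D2:**
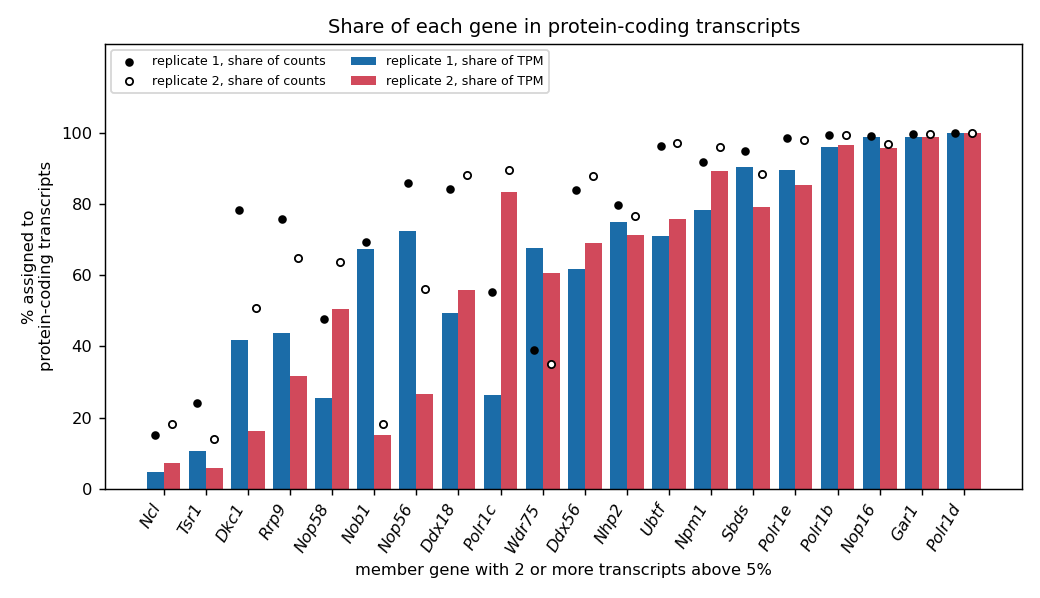
Percentage of each gene assigned to protein-coding transcripts, by TPM (bars, from 0) and by expected counts (points), in replicates 1 and 2, for the 20 genes with more than 1 transcript above 5%. Ncl is lowest at 4.81% and 7.33% of TPM, Nop56 and Nob1 are lower in replicate 2 than in replicate 1, and the share by counts lies above the share by TPM for most genes.

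The partners of complexes were rarely at equal levels. Of 9 ratios between partners, 0 were within 2-fold in both libraries by TPM, and 1 was by coding transcripts alone, Nop56 to Nop58. The ratio of Polr1b to Polr1a was 1.27 in replicate 1 and 2.58 in replicate 2. The ratio of Polr1c to Polr1d was 0.21 and 0.083, and that of Nop58 to Fbl was 0.15 and 0.073. With coding transcripts the last of these was 0.038 and 0.037, so Fbl stood more than 20-fold above Nop58 in both libraries. RNA levels of this kind say nothing of protein levels, which were not measured.

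**Figure D3:**
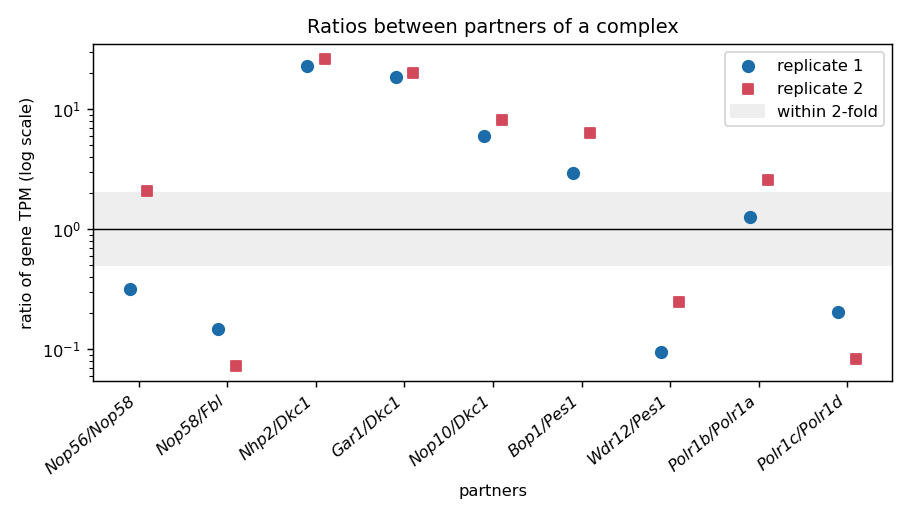
Ratio of gene TPM (log scale) between partners of a complex in replicate 1 (circles) and replicate 2 (squares), with the range within 2-fold shaded. The 3 ratios to Dkc1 lie above 6 in both libraries, and Nop56 to Nop58 is 0.32 in replicate 1 and 2.09 in replicate 2.

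Between the libraries most of the ribosome genes were lower in replicate 2. With expected counts scaled by TMM (trimmed mean of M values), the log2 ratio of replicate 2 to replicate 1 was below 0 for 29 of the 43 genes, against 48.8% of the detected protein-coding genes. The median was -0.34, against 0.01 over those genes. On the TPM scale 35 of the 43 were higher in replicate 1, as were 4558 of the 8219 detected protein-coding genes. The 7 genes called different, at an adjusted p under 0.05 in an exact two-sided binomial test and at least 2-fold, were all higher in replicate 1. Over all 11285 genes tested, 11.0% were called, 8.32% as higher in replicate 1 and 2.69% as higher in replicate 2. Among detected protein-coding genes alone, 5.88% were called as higher in replicate 1 and 1.41% as higher in replicate 2. This test compares these 2 libraries with counting noise as the only error and is no test of a treatment.

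The 7 genes came from 5 of the 6 roles, and no box H/ACA gene was among them. Nop58 had the lowest log2 ratio at -1.68, with 4697 counts in replicate 1 and 948 in replicate 2 (binomial test, Benjamini-Hochberg adjusted p = 9.4e-295). Npm1 followed at -1.43, with 6010 and 1450 counts, and then Gnl3 at -1.13, Nob1 at -1.12, Pes1 at -1.06, Polr1e at -1.05 and Sbds at -1.02. Ltv1, at -0.96, fell just short of the 2-fold limit. At the other end Polr1b was at 0.51, Nop53 at 0.36, Ddx56 at 0.35, Nop10 at 0.33 and Rrp9 at 0.32, each above 0 at an adjusted p of 3.7e-08 or less but under 2-fold. Ddx21 at 0.00 and Polr1d at 0.03 did not pass the test. EdgeR was also run with a dispersion estimated from the libraries themselves (coefficient of variation 0.31), which takes their whole difference as spread. Then 0 of the 43 genes and 21 of the 8219 detected genes had an adjusted p under 0.05 in its exact test, and 2 of the 43 and 252 of the 8219 had an unadjusted p under 0.05.

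**Figure D4:**
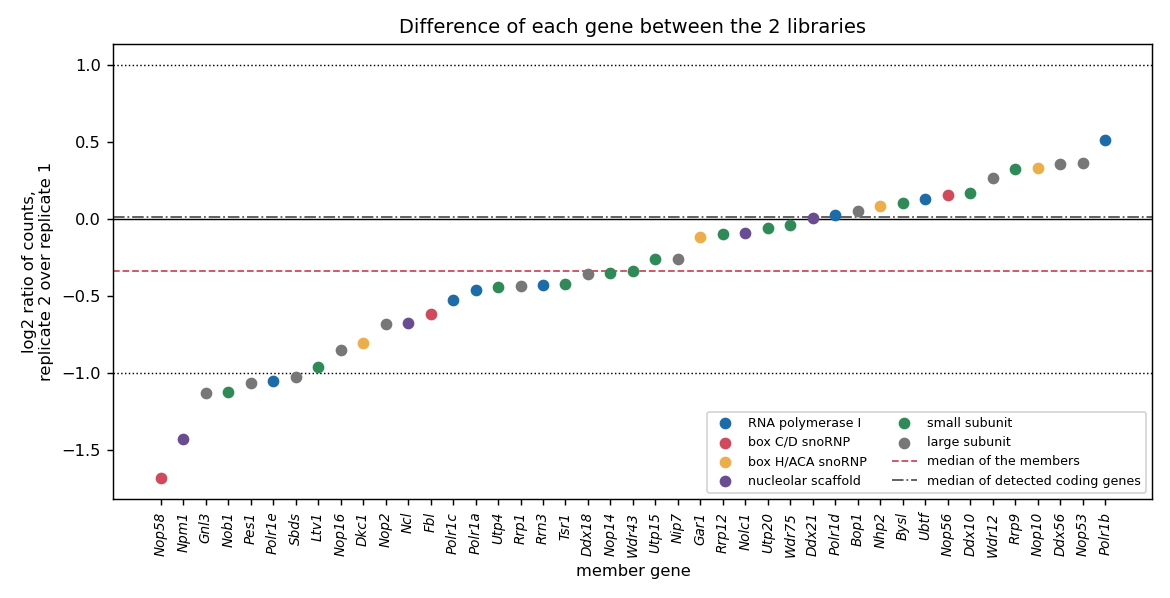
Log2 ratio of TMM-scaled expected counts, replicate 2 over replicate 1, for each of the 43 genes in order, coloured by role, with dotted lines at 2-fold. The genes run from Nop58 at -1.68 to Polr1b at 0.51, and their median (dashed, -0.34) lies below that of all detected coding genes (0.01).

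The level of the genes also moved with their base composition. Across the 43 genes, log2 mean TPM correlated with the GC content of the longest coding transcript with Pearson's r of 0.45 (n = 43 genes that share both libraries), against 0.31 over the 8219 detected genes. For the other genes of the pathway r was 0.66 (n = 107). Fbl, at 56.7% GC, and Rrp9, at 59.8%, were both high in GC and in level, while Ncl, at 42.8%, was an exception. That GC is of Ncl-201, which held 0.84% of Ncl TPM in each library, and the coding transcripts of Ncl had a mean of 80.8 TPM. The 22 genes of higher GC had a median of 64.8 TPM, and the 21 of lower GC a median of 13.8 TPM. Detected genes in the same GC ranges had medians of 31.6 and 11.5 TPM.

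The log2 ratio between the libraries was lower in the genes of lower GC. Their median log2 ratio was -0.36, against -0.10 for the genes of higher GC, and 4 of 21 (19.0%) and 3 of 22 (13.6%) were called. Over detected genes in those ranges the medians were -0.08 and 0.04, and 10.0% and 4.84% were called. With the GC trend of all genes removed, the median of the 43 genes was -0.24, 28 of them were below 0, and 6 were called. Over the 8219 detected protein-coding genes the median was then 0.0045, and 4074 were below 0. The share of all genes called with the trend removed was not computed. Of the 43 genes, Sbds, at -0.96 then, was the one no longer called. The share of GC in the remaining difference was not tested.

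**Figure D5:**
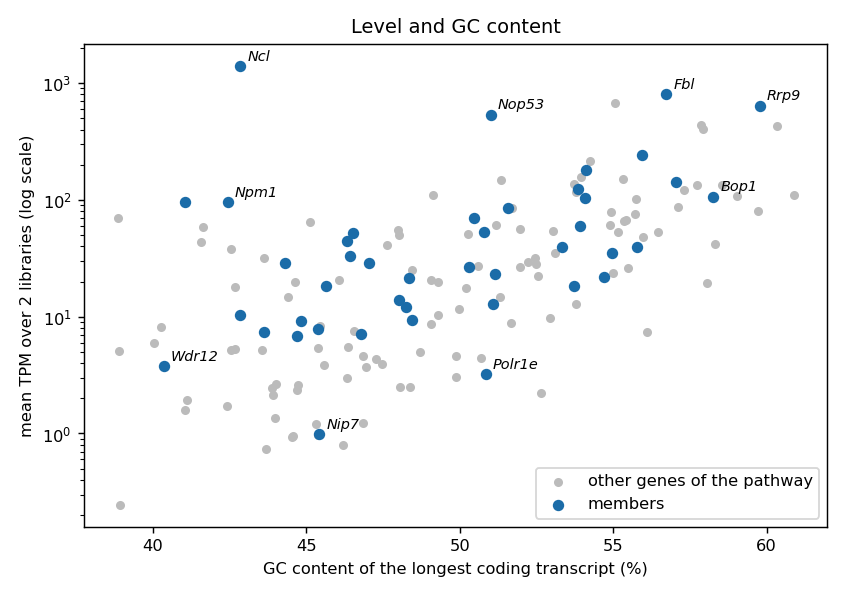
Mean TPM over the 2 libraries (log scale) against GC content of the longest coding transcript, for the 43 genes (blue) and the other genes of the pathway (grey). Levels tend to be higher at higher GC, with r of 0.45 for the 43 genes. Ncl at 42.8% GC, plotted at its whole-gene level and not that of its coding transcripts, lies far above the trend.

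The other genes of the pathway showed the same direction between the libraries. Of the 108 genes, 99 were detected, with a median of 20.2 TPM, which is close to the 20.8 TPM of all detected coding genes. Their median log2 ratio was -0.26, and 16 were called higher in replicate 1 and 0 higher in replicate 2. Over all 11285 genes tested those shares were 8.32% and 2.69%. In the polymerase I role the highest were Polr2f and Polr2e, subunits shared by all nuclear RNA polymerases, at 591 and 259 TPM and at 168 and 101 TPM, and Taf1c, of the promoter selectivity factor, at 83.4 and 136 TPM. The other listed subunits of the selectivity factor were far lower, and below Polr1a in both libraries: Taf1a at 0.80 and 0.79 TPM, Taf1b at 1.49 and 0.92, and Taf1d at 3.08 and 0.81. Of the 3 highest, Polr2f was called, with a log2 ratio of -1.04.

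In the snoRNP role Ruvbl2, an assembly ATPase, stood at 411 and 400 TPM, and Naf1, an assembly factor of H/ACA particles, at 40.5 and 69.9. Snu13, which binds box C/D RNA first, stood at 105 and 23.9 TPM, and its log2 ratio of -2.01 was the lowest of the pathway, as that of Nop58 was the lowest of the 43 genes. Among small subunit factors the highest were Noc4l at 173 and 129 TPM, Emg1 at 145 and 153, and Wdr46 at 110 and 156. Utp11 was called, at 8.22 and 2.44 TPM. Among large subunit factors the highest after Eif6 were Rrs1, at 205 and 224 TPM, and the SUMO protease gene Senp3, at 148 and 164. Las1l, at 17.2 and 6.08 TPM, was called, as was Ebna1bp2, at 27.2 and 22.9 TPM and a log2 ratio of counts of -1.29.

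The exosome genes, which encode the nuclease that trims rRNA precursors, differed among themselves in direction. Exosc5 stood at 572 and 773 TPM, Exosc3 at 104 and 114, and Exosc4 at 55.7 and 65.8. Exosc8 stood at 49.8 and 9.22 TPM, Exosc7 at 14.2 and 3.36, and Exosc1 at 11.5 and 5.21, and these were called, with log2 ratios of -1.73, -1.94 and -1.09. Genes of one complex were thus higher in opposite libraries. The cytosolic ribosomal protein genes, products of another gene set, had a median log2 ratio of -0.39 over 79 genes. Of the 79, 18 were called higher in replicate 1 and 1 in replicate 2. Over the detected protein-coding genes those shares were 5.88% and 1.41%.

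Promoter windows of 300 bases, from 250 before to 50 after the RefSeq start (GRCm38.p6), were at hand for 37 of the 43 genes. The genes without one were Nop53, Rrp12, Sbds, Npm1, Bop1 and Fbl. There were 5 motifs searched on both strands. The E-box CACGTG, the site bound by MYC and related factors, was found in 8 of the 37 windows (21.6%), in 16 of 90 windows of the other pathway genes (17.8%), in 11.3% of 6588 windows of detected genes and in 7.91% of all 17492 windows. The variant CACGCG was in 40.5% of the 37 windows and 19.9% of the detected ones. The CCAAT motif was in 40.5% and 40.2%, and the GC box GGGCGG in 73.0% and 69.4%, so these were near the background. The GATA motif AGATAA was in 0 of the 37 windows and in 5.74% of detected ones, which says only that these letters are not in these windows.

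The 9 E-box matches lay in Rrn3, which had 2, and in Pes1, Nop2, Ltv1, Tsr1, Wdr43, Utp20 and Utp4. Of the 9, 6 lay after the start and 2 within the 100 bases before it. The stretches of 30 bases around them are shown to compare the flanks, with CACGTG in capitals, on the strand of the gene.
Rrn3 (chr16:13780472-13780501, plus strand): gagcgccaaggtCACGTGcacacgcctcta
Rrn3 (chr16:13780639-13780668, plus strand): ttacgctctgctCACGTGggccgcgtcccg
Nop2 (chr6:125131811-125131840, plus strand): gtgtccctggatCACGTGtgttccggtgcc
Pes1 (chr11:3963965-3963994, plus strand): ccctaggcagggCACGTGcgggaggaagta
Ltv1 (chr10:13193092-13193121, minus strand): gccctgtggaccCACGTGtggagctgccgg
Tsr1 (chr11:74898092-74898121, plus strand): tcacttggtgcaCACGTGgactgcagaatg
Wdr43 (chr17:71616220-71616249, plus strand): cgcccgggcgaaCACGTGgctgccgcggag
Utp20 (chr10:88826765-88826794, minus strand): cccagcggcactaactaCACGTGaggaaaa
Utp4 (chr8:106893643-106893672, plus strand): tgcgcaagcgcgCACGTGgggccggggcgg

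Rrn3 was the one gene with more than 1 E-box in its window, at 215 and 48 bases before the start. Its 250 bases before the start (chr16:13780449-13780698, plus strand) are shown for the spacing of the matches, in capitals.
Rrn3 upstream: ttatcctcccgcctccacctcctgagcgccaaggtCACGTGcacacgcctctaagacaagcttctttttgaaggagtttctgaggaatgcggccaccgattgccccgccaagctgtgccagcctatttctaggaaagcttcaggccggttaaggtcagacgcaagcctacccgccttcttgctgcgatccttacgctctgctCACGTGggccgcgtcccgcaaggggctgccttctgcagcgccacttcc

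Genes with an E-box were neither the highest nor the lowest of the set. The 8 genes ranged from 7.08 TPM in Utp20 to 35.0 TPM in Nop2, with a median of 27.7 TPM, and the 29 with a window and no E-box ranged from 0.99 to 1402 TPM, with a median of 39.6. The ranges overlapped throughout, and binding of a factor was not measured in this series.

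Few counts were assigned to near-identical copies of these genes. Among the deposited gene rows, a pseudogene with at least 90% identity over 300 bases was found for 13 of the 43 genes. The copy with the largest share was Gm5812, beside Fbl, with 1.59% and 1.57% of the counts of gene and copies together, and the 6 copies of Npm1 took 0.48% and 0.21%. No copies took more than 5% of any gene's counts in either library. These are counts after assignment, so the fragments that fit both a gene and a copy were not measured.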

How the data were processed

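The data were 2 libraries of 1 group, each with gene-level and transcript-level values. Per the file headers and the notes beside them, the deposited values came from alignments to the transcriptome on mm10 and GENCODE M4. The aligner and quantifier are not given in the sources used here. Expected counts, as deposited, are estimated fragments per gene or transcript, not normalized. The deposited TPM values are scaled by effective length to a fixed total, and the deposited FPKM values entered an alternative only. The authors' bounds of a TPM interval were read for Nip7, Rrn3 and Polr1b, with their level not given.

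Names, positions and transcript types came from GENCODE M21 on GRCm38, the assembly of mm10. Of 43346 gene rows, 42462 matched, and the rest held 0.248% and 0.257% of the counts. Sequences came from RefSeq (GRCm38.p6 promoters) and GENCODE M21. Counts were rounded, and genes with at least 10 counts over both libraries entered an exact binomial test, two-sided, against TMM-scaled sizes (edgeR 4.0.16, Python 3.11.15), adjusted by Benjamini-Hochberg over 11285 genes. Log2 ratios carried a prior count of 0.5. The GC trend was a lowess curve (fraction 0.3) over coding genes that had 50 or more counts per library. Copies were found with blastn 2.17.0. The procedures were tested on simulated data. All 43 genes were named, with the 3 highest pathway genes of each role, called pathway genes of at least 5 TPM and the 2 leading transcripts of a gene. Named outside these rules were Taf1a, Taf1b and Taf1d, and the transcripts Ncl-201, Nop56-201, Nop58-201, Nop58-202 and Nop58-206. The members and lists were chosen with earlier results of these data known, and Srr, Ccnd3, Gm5812 and the snoRNA genes were named after their values were seen. Errors are the SD (n = 2), and p-values measure only the difference of these libraries.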

Additional observations from a re-analysis of the deposited data

How the results depend on the processing

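No paired analysis was possible because the libraries form 1 group. The number of genes detected stayed between 39 and 43 over all 6 alternatives, and the median TPM between 26.3 and 39.5 over 6 alternatives. The median log2 ratio stayed below 0 under all 9 alternatives, from -0.24 with the GC trend removed to -0.55 with library totals. The changed filters on counts could not move it, since all 43 genes passed them. Library totals moved the median of all detected coding genes from 0.01 to -0.20. A change of scaling shifts all genes alike, so the 43 genes stayed at -0.35 relative to that median by construction. With totals, 37 of the 43 were below 0 and 10 were called, all higher in replicate 1. The shares of all genes below 0 or called with totals were not computed, so these counts stand without a background. The number called was 7, and became 13 with a limit of 1.5-fold (all higher in replicate 1, as were 16.9% of genes tested, with 10.6% higher in replicate 2) and 0 with the dispersion of the libraries in edgeR's exact test. No log2 ratio or call could be given with a library left out. Of the partner ratios, 0 were within 2-fold in both libraries by TPM, 1 by expected counts, 1 by coding transcripts (added after seeing the data), and between 0 and 1 with either library alone. The median share of the leading transcript, over the 20 genes with more than 1 above 5%, was 52.0% by TPM, 70.4% by expected counts, and 55.1% and 57.4% in single libraries, which exceeded the SD of 1.62. For single partner ratios, 38 values under alternatives moved by less than the SD and 7 by more. The 38 include the values of each library alone, which lie within the SD of 2 libraries by construction. With 2 libraries of 1 group, no change with estradiol could be measured, and transcript shares rest on fragments that several transcripts hold in common.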
